A study of Homo sapiens with 12 samples.

Results

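The 9 genes described here, CDKN1A, BTG2, GADD45A, MDM2, ZMAT3, TP53INP1, XPC, DDB2 and RRM2B, are established transcriptional targets of the tumour suppressor p53. They were taken by name from a short list, and all 9 were present among the 61806 Ensembl genes of the LP-1 table and the 19130 gene symbols of the U266 table. RNA was sequenced from LP-1 and U266, established human multiple myeloma cell lines whose genotype is given as wild type, meaning not engineered. Each line received dihydroartemisinin (DHA), the active metabolite of the artemisinin antimalarials, at its IC50, or the same amount of the solvent DMSO, for 12 h. Each of the 4 groups (LP-1 with DMSO, LP-1 with DHA, U266 with DMSO, U266 with DHA) held 3 libraries. The labels do not say whether these came from separate cultures, so the spread between them may be technical, and 1 line of each kind limits what the comparison says about other myelomas. The question put to the 9 genes was whether they moved together, or whether movement was found in those that other stress pathways also drive.

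The protein p53 is a transcription factor that is stabilised by DNA damage and other stresses. It binds DNA as a tetramer and switches on genes for cell cycle arrest, DNA repair and death, together with MDM2, the ubiquitin ligase that degrades p53 and closes a feedback loop. Several p53 targets are also induced without p53. GADD45A is induced by ATF4, the effector of the integrated stress response, BTG2 is an immediate early gene of growth factor signalling, and CDKN1A answers to many stress and differentiation signals. These 3 are called members with a stress route below, although the route named for BTG2 is growth factor signalling. TP53INP1, itself a stress protein, is counted among the members without such a route. The assignment rests on general knowledge rather than on these data, and the counts by route depend on it.

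Sequences before the transcription start are shown for the pair of MDM2 starts, since MDM2 is the member whose internal start is classically p53-driven, and for BTG2, the member with the largest fall in LP-1. They are RefSeq promoter windows on GRCh38.p14, read 5′ to 3′ on the gene's strand and cut where an annotated exon begins. The first MDM2 window (chr12:68807922-68808171, plus strand) lies before the gene, the internal one (chr12:68808774-68809001, plus strand) in its intron, and the BTG2 window (chr1:203305269-203305490, plus strand) before the gene.
MDM2, first start: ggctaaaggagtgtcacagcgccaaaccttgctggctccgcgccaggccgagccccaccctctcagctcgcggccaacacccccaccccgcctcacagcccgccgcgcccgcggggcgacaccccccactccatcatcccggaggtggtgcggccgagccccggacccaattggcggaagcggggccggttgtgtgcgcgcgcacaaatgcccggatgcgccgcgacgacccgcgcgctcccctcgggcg
MDM2, internal start: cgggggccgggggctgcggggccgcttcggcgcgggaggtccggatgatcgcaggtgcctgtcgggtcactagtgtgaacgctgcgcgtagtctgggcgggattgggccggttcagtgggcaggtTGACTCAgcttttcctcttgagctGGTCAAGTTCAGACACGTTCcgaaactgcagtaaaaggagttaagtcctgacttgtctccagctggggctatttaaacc
BTG2: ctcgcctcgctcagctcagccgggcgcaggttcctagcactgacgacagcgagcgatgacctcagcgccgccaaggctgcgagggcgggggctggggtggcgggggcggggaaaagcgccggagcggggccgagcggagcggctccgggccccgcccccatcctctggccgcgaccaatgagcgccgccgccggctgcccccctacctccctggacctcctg
Capitals mark, in order, an AP-1 site (TGANTCA) and a match to the p53 response element consensus over 20 bases with at most 2 mismatches, searched on both strands; these do not overlap. The p53 element was found in 0.561% and the AP-1 site in 6.57% of the 35097 human windows of 250 bases before a start. The cAMP response element (TGACGTCA, in 1.65% of windows) and the C/EBP-ATF response element bound by ATF4 (TGATGNAA, in 3.15%) were found in no window of a member. Of the 9 genes, 6 had a window (11 windows in all), GADD45A, RRM2B and TP53INP1 not among them. A match describes these letters in this window only.

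FPKM values (fragments scaled by transcript length and by library size) correct for length, so the levels of genes can be ranked within a line. With DMSO, BTG2 was the highest member in LP-1 at 662 ± 21.01 FPKM (mean ± SD, n = 3 here and below), followed by TP53INP1 at 121 ± 15.9, RRM2B at 14.1 ± 1.01 and CDKN1A at 9.88 ± 0.687 FPKM. MDM2, DDB2, XPC, GADD45A and ZMAT3 followed, from 7.997 down to 4.46 FPKM, and the libraries of each neighbouring pair among these 5 overlapped. In U266 the order began BTG2 (89.1 ± 2.94 FPKM), TP53INP1 (42.0 ± 3.00), CDKN1A (24.9 ± 0.715) and MDM2 (18.7 ± 1.03). RRM2B, DDB2, GADD45A and XPC followed at 9.13 to 6.67 FPKM with overlapping neighbours, and ZMAT3 was lowest at 2.41 ± 0.164 FPKM. The tables of the lines were made separately, so levels were not compared across them. Reads behind a member's value, recovered from the steps of low values, ran from 113 for GADD45A in 1 LP-1 library with DMSO to 27120 for BTG2 in another. They cover counting error only.

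Each table was checked before the results. Recovered from the FPKM steps, the depth of the LP-1 libraries was 13.4 to 17.5 M reads, and U266 libraries had 10.3 to 21.8 M. Low recovered counts were even in 37.0 to 38.6% of cases in LP-1. In U266 they were even in 76.2 to 78.0%, except for 52.4% in DHA replicate 3. The unit, a read or a read pair, may thus differ between the tables, and depths were not compared across them. Of 8 plasma cell markers 7 were expressed in each line (SLAMF7 was missing in LP-1 and CD38 in U266), with XBP1 the highest in LP-1 and TNFRSF17 in U266. With DHA 2 of the 7 rose and 4 fell in LP-1, and none rose and 4 fell in U266. Falls were called for 20.2% and 19.6% of all genes. SDC1 fell from 30.9 ± 1.72 to 5.16 ± 0.484 FPKM in LP-1 and from 192 ± 5.15 to 88.4 ± 6.02 FPKM in U266. The 2 rises in LP-1 were IRF4, from 79.9 ± 14.3 to 253 ± 7.91 FPKM, and PRDM1, from 24.8 ± 5.99 to 39.5 ± 1.28 FPKM. In U266 IRF4 did not pass (179 ± 6.11 and 179 ± 7.41 FPKM) and PRDM1 fell, so the markers did not share a direction. Of the 5 T and NK cell and 5 monocyte markers none reached 1 FPKM in 3 libraries of a line. Of the 5 erythroid markers HBB did so in U266, where it fell from 10.25 ± 0.775 to 6.75 ± 0.499 FPKM (limma adjusted p = 0.000443). Of the 5 stromal and endothelial markers PECAM1 did so in LP-1, where it fell from 4.68 ± 0.806 to 1.41 ± 0.0608 FPKM (limma adjusted p = 0.000912). In U266 COL3A1 rose from 2.08 ± 0.237 to 4.38 ± 1.44 FPKM (limma adjusted p = 0.0045) and COL1A1 from 0.897 ± 0.150 to 1.75 ± 0.633 FPKM (limma adjusted p = 0.0491). The part of these markers in the results was not tested. In U266 DHA replicate 3, however, 18399 genes were above 0 against 14682 to 14992 in the other libraries of that line. The T and NK cell markers summed to at most 9.22 FPKM with DHA in U266, in that replicate, against 1.08 to 1.70 FPKM with DMSO. The monocyte markers summed to at most 5.46 FPKM, in the same replicate, against 0.687 to 0.803 FPKM. In LP-1, DMSO replicate 3 differed most from its fellow replicates, with a mean chi-square per gene of 49.3 and 82.4 against the other 2, which differed by 7.72. For the 9 genes and the p53 target lists the number of calls without these libraries is given beside the results. In bulk RNA a change in all cells cannot be told apart from a change in a share of them.

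The genes of cell cycle arrest did not share a direction. GADD45A (ENSG00000116717, chromosome 1, 67685061 to 67688338 in GENCODE 29 on GRCh38), whose product binds PCNA and stress kinases, was at 5.14, 4.04 and 6.64 FPKM in the LP-1 libraries with DMSO and at 13.4, 15.6 and 15.8 FPKM with DHA. The U266 libraries were at 5.98, 8.05 and 7.06 FPKM with DMSO and at 27.6, 22.5 and 24.1 FPKM with DHA. All libraries with DHA lay above all with DMSO in each line. GADD45A rose 2.83-fold in LP-1 (log2 change of FPKM + 1 of 1.36, SE 0.16, limma adjusted p = 0.00154) and 3.52-fold in U266 (1.68, SE 0.10, adjusted p = 1.07e-06). Its change ranked 37 by size among the 10422 genes tested in U266 and 330 among 12514 in LP-1.

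CDKN1A (ENSG00000124762, chromosome 6, 36676460 to 36687339), which encodes the CDK inhibitor p21, moved in opposite directions. In LP-1 it was at 10.6, 9.73 and 9.28 FPKM with DMSO and at 6.59, 6.12 and 6.95 FPKM with DHA, so that every library with DHA was below every one with DMSO. U266 libraries had 25.4, 24.1 and 25.2 FPKM with DMSO and at 35.2, 32.8 and 31.3 FPKM with DHA, so that every library with DHA was above. CDKN1A fell in LP-1 (log2 change -0.53, SE 0.09, limma adjusted p = 0.00454) and rose 1.33-fold in U266 (0.40, SE 0.06, adjusted p = 0.000334). The rise in U266 did not pass with TMM-style scaling (0.28, adjusted p = 0.0748, over 9.05e-05 to 0.0748 in 15 alternatives), and passed with that scaling once DHA replicate 3 was left out (0.40, adjusted p = 0.000446).

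BTG2 (ENSG00000159388, chromosome 1, 203305491 to 203309602), an antiproliferative protein that recruits the deadenylase complex to mRNA, fell in both lines. It was at 678, 670 and 638 FPKM with DMSO and 213, 216 and 227 FPKM with DHA in LP-1. In U266 it was at 87.1, 92.4 and 87.6 FPKM with DMSO and 57.5, 58.2 and 54.4 FPKM with DHA. The groups did not overlap in either line. The level was 3.03 times as high with DMSO as with DHA in LP-1 (log2 change -1.59, SE 0.09, limma adjusted p = 0.000161) and 1.57 times as high in U266 (-0.64, SE 0.05, adjusted p = 4.91e-06). BTG2, placed by label among the members with a stress route, thus went against GADD45A in each line.

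**Figure D1:**
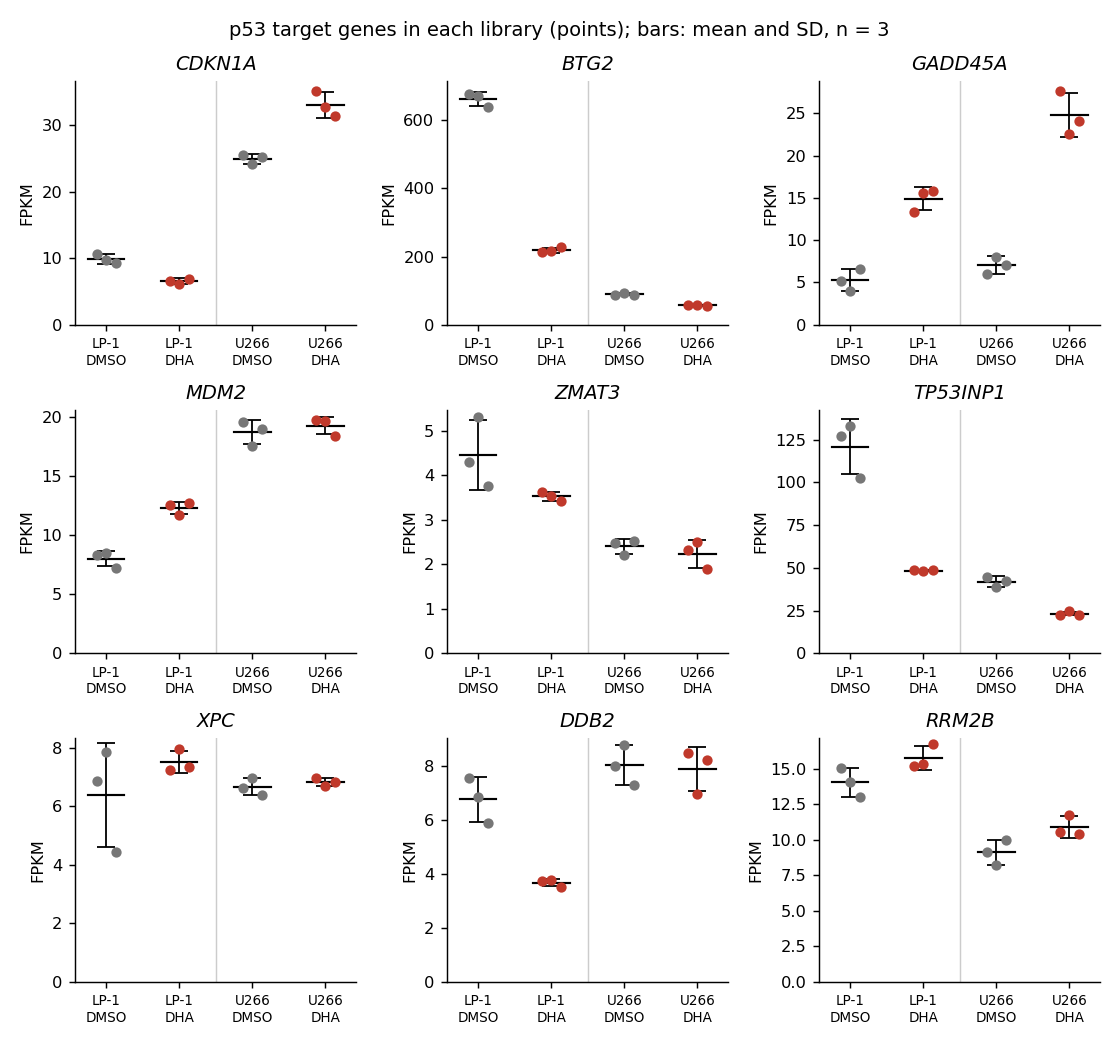
FPKM (y axis, linear, from 0) of the 9 p53 target genes in each of the 12 libraries. Grey points are DMSO and red points DHA libraries, with bars for the mean and SD of 3; GADD45A was higher with DHA in both lines, BTG2 and TP53INP1 lower in both, and CDKN1A lower in LP-1 and higher in U266.

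MDM2 and ZMAT3 act on p53 and its outputs. MDM2 (ENSG00000135679, chromosome 12, 68808176 to 68850686) was at 8.30, 8.45 and 7.24 FPKM with DMSO and 12.5, 11.7 and 12.7 FPKM with DHA in LP-1, where the groups did not overlap. In U266 it was at 19.5, 17.5 and 18.98 FPKM with DMSO and 19.7, 19.6 and 18.4 FPKM with DHA, and the groups overlapped. MDM2 rose 1.54-fold in LP-1 (log2 change 0.57, SE 0.08, limma adjusted p = 0.00343) and did not pass in U266 (0.04, 95% interval -0.09 to 0.17, adjusted p = 0.617). The values are gene totals, so transcripts from the first and the internal start shown above were not separated. ZMAT3, an RNA-binding regulator of splicing that acts in tumour suppression, was at 3.76 to 5.31 FPKM with DMSO and 3.43 to 3.62 FPKM with DHA in LP-1. In U266 it was at 2.22 to 2.52 and 1.88 to 2.50 FPKM. It did not pass in LP-1 (log2 change -0.26, limma adjusted p = 0.12) or in U266 (-0.08, adjusted p = 0.648). In LP-1 ZMAT3 passed without DMSO replicate 3 (-0.35, limma adjusted p = 0.0159, over 0.0159 to 0.263 in 14 alternatives).

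TP53INP1, on chromosome 8 (ENSG00000164938), encodes a stress protein that promotes p53 activity, autophagy and death. In LP-1 it was at 127, 133 and 103 FPKM with DMSO and 48.5, 48.1 and 48.6 FPKM with DHA. U266 held 44.9, 38.9 and 42.1 FPKM with DMSO and 22.6, 24.5 and 22.6 FPKM with DHA. All libraries with DHA lay below all with DMSO in both lines. The level was 2.50 times as high with DMSO in LP-1 (log2 change -1.30, SE 0.11, limma adjusted p = 0.00053) and 1.81 times as high in U266 (-0.83, SE 0.06, adjusted p = 5.02e-06).

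Among the DNA repair genes DDB2 and RRM2B were each called in 1 line and XPC in neither. DDB2 (ENSG00000134574, chromosome 11, 47214465 to 47239240), which recognises ultraviolet damage, was at 7.56, 6.86 and 5.91 FPKM with DMSO and 3.75, 3.76 and 3.52 FPKM with DHA in LP-1, with no overlap. Values in U266 were 8.01, 8.79 and 7.31 FPKM with DMSO and 8.48, 6.98 and 8.23 FPKM with DHA, and the groups overlapped. DDB2 fell in LP-1 (log2 change -0.73, SE 0.10, limma adjusted p = 0.00254) and did not pass in U266 (-0.02, 95% interval -0.22 to 0.18, adjusted p = 0.862). XPC (ENSG00000154767, chromosome 3, 14145147 to 14178783), the damage sensor of global nucleotide excision repair, ran from 4.43 to 7.86 FPKM with DMSO and from 7.25 to 7.95 FPKM with DHA in LP-1. It ran from 6.39 to 6.98 and from 6.70 to 6.96 FPKM in U266. It passed in neither line (log2 changes 0.24 and 0.03, limma adjusted p = 0.336 and 0.763). In LP-1 the XPC change was 0.03 without DMSO replicate 3, the library at 4.43 FPKM. Exons of LSM3 on the opposite strand, at 15.3 to 30.04 FPKM in LP-1, cover 6.63% of the XPC exons, and no source says whether reads were counted by strand. RRM2B, on chromosome 8 (ENSG00000048392), the p53-induced small subunit of ribonucleotide reductase, ran from 13.1 to 15.1 FPKM with DMSO and from 15.2 to 16.8 FPKM with DHA in LP-1. It did not pass there (log2 change 0.16, adjusted p = 0.178 by limma). In U266 it rose from 8.25 to 10.0 FPKM with DMSO to 10.4 to 11.8 FPKM with DHA (0.23, 95% interval 0.05 to 0.41, limma adjusted p = 0.042). The RRM2B call in U266 was lost in 11 of 15 alternatives, with adjusted p from 0.0275 to 0.412 over all of them.

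GADD45A and MDM2 (2 of 9) rose in LP-1, while CDKN1A, BTG2, TP53INP1 and DDB2 (4 of 9) fell, leaving 3 without a call, where 20.0% of the 12514 genes tested rose and 20.2% fell. In U266, 3 rose (GADD45A, CDKN1A and RRM2B), 2 fell (BTG2 and TP53INP1) and 4 did not pass, where 21.1% of the 10422 genes tested rose and 19.6% fell. With calls in either direction at 40.2% and 40.7% of all genes, 6 and 5 calls among 9 genes do not set these genes apart. Their median log2 change was -0.26 in LP-1 and 0.03 in U266, beside 0.01 and 0.02 over all genes tested. The groups did not overlap for 8 members in LP-1 and 5 in U266, beside 58.8% and 51.5% of all genes. Without LP-1 DMSO replicate 3, 7 members were called in LP-1, and without U266 DHA replicate 3, 5 were called in U266. With TMM-style scaling 3 members were called in U266, where that scaling also moved the share of rises among all calls from 51.9% to 33.9%.

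**Figure D2:**
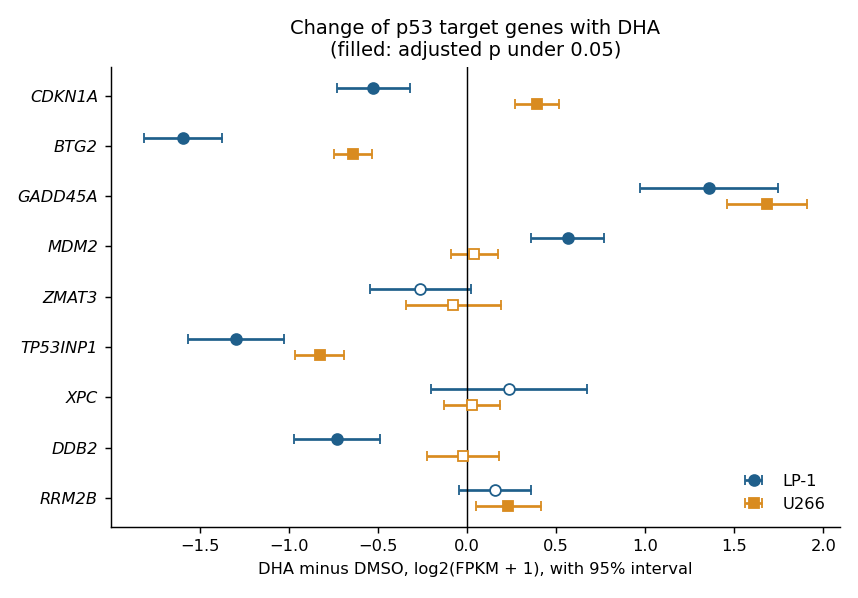
Difference between DHA and DMSO on the log2(FPKM + 1) scale (x axis) for each gene, with its 95% interval from limma, in LP-1 (circles) and U266 (squares). Filled symbols passed at an adjusted p under 0.05; the called values run from -1.59 to 1.36 in LP-1 and from -0.83 to 1.68 in U266, and so lie on both sides of 0 in each line.

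The lines differed in the response of 5 of the 9 genes, where 34.7% of the 8865 genes kept in both lines differed (limma interaction contrast over 12 libraries, of differences taken within each table). For CDKN1A the log2 change in U266 minus that in LP-1 was 0.92 (SE 0.10, adjusted p = 6.83e-05). For MDM2 it was -0.53 (SE 0.10, adjusted p = 0.0026 by limma) and for DDB2 0.71 (SE 0.14, adjusted p = 0.00264 by limma). BTG2 (0.95, SE 0.09, limma adjusted p = 2.42e-05) and TP53INP1 (0.47, SE 0.13, limma adjusted p = 0.0159) fell in both lines and fell less in U266. The TP53INP1 difference was lost with TMM-style scaling (0.33, adjusted p = 0.121) and with quantile normalization (0.43, adjusted p = 0.128, over 7.55e-05 to 0.128 in 19 alternatives). No difference passed for GADD45A (0.32, 95% interval -0.12 to 0.77), ZMAT3 (0.18, -0.15 to 0.52), RRM2B (0.08, -0.18 to 0.34) or XPC (-0.20, -0.63 to 0.22). GADD45A passed without LP-1 DMSO replicate 2 (0.47, adjusted p = 0.049, over 0.049 to 0.544 in 19 alternatives).

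Members with a stress route moved in both directions in each line. Of the 3 members with such a route 1 rose and 2 fell in LP-1, and 2 rose and 1, BTG2, fell in U266. Of the 6 without, LP-1 had 1 rise, 2 falls and 3 genes with no call, and U266 1 rise, 1 fall and 4 genes with no call. Over all genes tested 20.0% rose and 20.2% fell in LP-1, and 21.1% rose and 19.6% fell in U266. Counts of 3 and 6 genes are too few to set either group apart from these shares. The rest of the pathway was read from further lists. Of 7 other p53 targets that ATF4, its partner CHOP or related stress factors also induce, 6 were tested in LP-1, where 4 rose and none fell, with a median log2 change of 1.84. The mTOR inhibitor SESN2 rose from 10.2 ± 2.26 to 141 ± 5.51 FPKM, the stress factor ATF3 from 7.57 ± 0.957 to 40.4 ± 1.5 FPKM and the death receptor TNFRSF10B from 6.82 ± 2.12 to 30.8 ± 0.470 FPKM. The fourth was PMAIP1, a BH3-only death protein (20.95 ± 4.80 to 65.4 ± 4.67 FPKM), named after its value was seen. BBC3 (log2 change 0.23) and DDIT4 (-0.08) did not pass. Without DMSO replicate 3 BBC3 passed as a rise (0.37, limma adjusted p = 0.00688, over 0.00463 to 0.465 in 14 alternatives). DDIT4 turned to 0.29 with quantile normalization (limma adjusted p = 0.016, over 0.016 to 0.868 in 15 alternatives). In U266 all 7 were tested, 6 rose and none fell, with a median of 2.48. Among the 6, GDF15 and BBC3 were under 1 FPKM in every DMSO library and so met the filter through the DHA group alone, which favours a rise, and 4 of the other 5 rose. Without U266 DHA replicate 3 these 5 were tested and 4 were called, and without LP-1 DMSO replicate 3 the list had 5 calls of 6 in LP-1. The secreted stress signal GDF15 rose from 0.648 ± 0.342 to 11.7 ± 1.09 FPKM, SESN2 from 14.3 ± 0.927 to 96.0 ± 2.45 FPKM and the mTOR inhibitor DDIT4 from 32.0 ± 1.77 to 192 ± 8.56 FPKM. PMAIP1 was the gene that did not pass there (3.03 ± 0.132 and 2.43 ± 1.16 FPKM, log2 change -0.28). Without DHA replicate 1 PMAIP1 was called as a fall (-0.55, limma adjusted p = 0.00693, over 0.00693 to 0.582 in 14 alternatives).

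Targets without a listed stress route were called in both directions. Of 30 such other targets 22 were tested in LP-1. Rises numbered 7 and falls 6, and 9 had no call, with a median log2 change of -0.13, where 20.0% of all genes rose and 20.2% fell. The helicase subunit ASCC3 rose from 3.57 ± 0.503 to 8.34 ± 0.248 FPKM, while cyclin G1 (CCNG1), which acts with MDM2, fell from 296 ± 42.2 to 145 ± 6.45 FPKM and the kinase PLK2 from 1.65 ± 0.0794 to 0.343 ± 0.117 FPKM. PLK2 and FDXR, 2 of the 6 falls, met the filter through the DMSO group alone, which favours a fall. Among the rises in LP-1, RAP2B and TP53I3 were lost in 8 and 5 of 15 alternatives and PPM1D in 3 of 14. Among the falls, FDXR was lost in 6 of 10 alternatives, PML in 7 of 14 and CASP1 in 1 of 14. The number of calls in LP-1 ran from 6 to 13 over 15 alternatives. In U266 23 were tested, and 5 rose, 2 fell and 16 did not pass, with a median of 0.07. Beside 21.1% of all genes that rose and 19.6% that fell there, these counts are near or below the background and are no result about these targets. Without LP-1 DMSO replicate 3 the list had 11 calls in LP-1, and without U266 DHA replicate 3 it had 9 in U266. The death receptor FAS rose from 13.1 ± 0.905 to 22.8 ± 1.43 FPKM and NINJ1, a membrane protein of cell rupture, from 3.355 ± 0.440 to 5.87 ± 0.601 FPKM. CASP1 fell from 1.496 ± 0.262 to 0.7999 ± 0.213 FPKM, a call lost in 7 of 14 alternatives. The other calls in U266, named after their values were seen, were rises of APAF1, CCNG1 and RAP2B (log2 changes 0.29, 0.23 and 0.21) and a fall of AEN (-0.26), calls lost in 3, 3, 11 and 4 alternatives. CCNG1 thus fell in LP-1 and rose in U266, and its rise was lost with TMM-style scaling (0.11, limma adjusted p = 0.515). Counted with the members, 5 of 9 tested targets with a stress route rose and 2 fell in LP-1, against 8 rises and 8 falls among 28 without. In U266 the counts were 8 rises and 1 fall of 10, against 6 rises and 3 falls of 29. These counts include the genes that met the filter through 1 group and the calls that were lost in alternatives. The lists were chosen with results of these data known, and the difference between them was not tested.

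**Figure D3:**
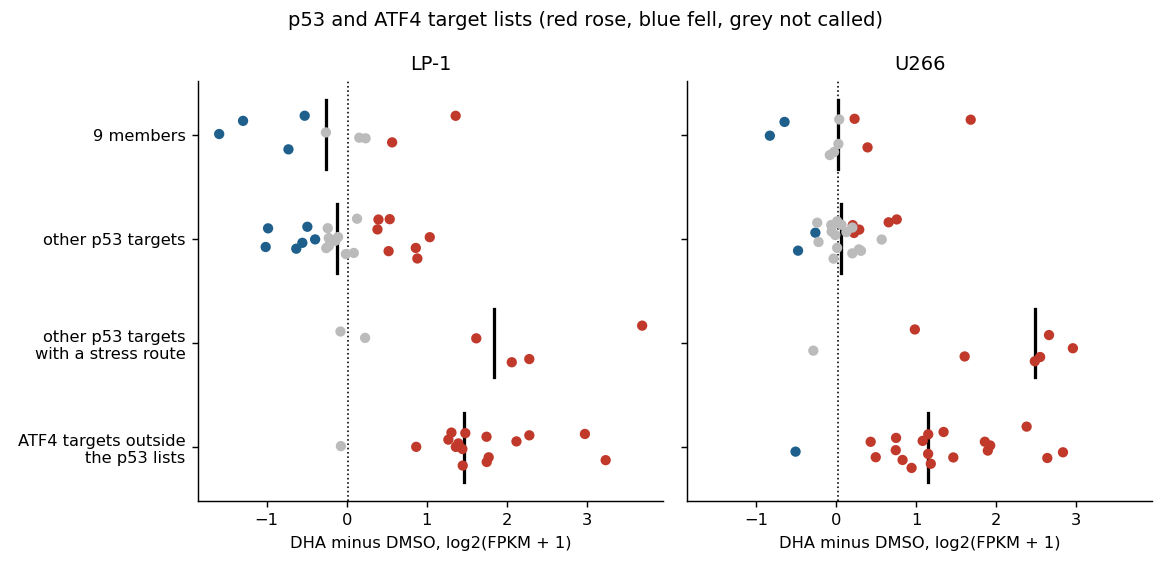
Log2(FPKM + 1) difference between DHA and DMSO (x axis) of each tested gene in 4 lists (rows; vertical spread within a row is for legibility), in LP-1 and U266. Black bars are list medians and the dotted line is the median of all genes tested. The medians of the other p53 targets with a stress route were 1.84 and 2.48, and those of the ATF4 targets 1.46 and 1.15. Both lie above the medians of the other 2 lists, but the lists were chosen with results of these data known. GDF15, BBC3 and JDP2 (U266) and SLC7A11 (LP-1) met the filter through the DHA group alone, and PLK2 and FDXR (LP-1) through the DMSO group alone.

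ATF4 targets outside the p53 lists were read in the same libraries, and ATF4 activity itself was not tested. Of 20, 16 were tested in LP-1 and 15 rose, with a median log2 change of 1.46. In U266 19 were tested and 18 rose, with a median of 1.15. Over all genes tested 20.0% rose in LP-1 and 21.1% in U266. This list too was chosen with results of these data known. ALDH18A1, a proline synthesis enzyme, was the gene that did not pass in LP-1 (-0.07) and the one that fell in U266 (-0.50). The pseudokinase TRIB3 rose from 11.8 to 119 FPKM in LP-1 and from 12.1 to 80.4 FPKM in U266. DDIT3, which encodes CHOP, rose from 12.8 ± 1.10 to 97.0 ± 0.706 FPKM in U266, and the secreted protein STC2 rose by 2.28 and 2.38 on the log2 scale in LP-1 and U266. In LP-1 the cystine importer SLC7A11 rose from 0.447 ± 0.104 to 10.4 ± 0.642 FPKM. SLC7A11 in LP-1 and JDP2 in U266 met the filter through the DHA group alone, and without them 14 of 15 and 17 of 18 ATF4 targets rose.

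MDM4, the MDM2 relative that holds p53 inactive, was at 11.5 ± 1.79 and 12.6 ± 0.259 FPKM in LP-1 (log2 change 0.13, limma adjusted p = 0.387) and rose from 7.54 ± 0.669 to 12.3 ± 0.981 FPKM in U266. MDM2 and MDM4 were thus each called in 1 line, MDM2 in LP-1 and MDM4 in U266.

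Among 14 regulators and relatives of p53, 12 were tested in LP-1, and 5 rose and 1, the checkpoint kinase CHEK2, fell (log2 change -0.99). Over all genes 20.0% rose and 20.2% fell in LP-1. The deubiquitinase USP7, which stabilises MDM2 and p53, rose from 41.5 ± 6.26 to 89.5 ± 1.15 FPKM. The acetyltransferases EP300 and CREBBP rose from 7.46 ± 4.49 to 18.5 ± 1.65 FPKM and from 5.50 ± 2.73 to 14.2 ± 1.38 FPKM, calls that were lost in 5 and 4 of 15 alternatives. The other rises, named after their values were seen, were those of the damage kinases ATR and CHEK1 (log2 changes 0.71 and 0.46). In U266 13 were tested, and 3 rose (MDM4, CREBBP and USP7) and 1 fell, beside 21.1% and 19.6% of all genes. The CREBBP and USP7 calls in U266 were lost in 6 and 7 of 15 alternatives. The one that fell was HIPK2, a kinase that phosphorylates p53, from 36.1 ± 3.36 to 18.7 ± 1.52 FPKM.

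Paralogs moved with their member in some cases and against it in others. Of 9 tested in LP-1, 2 rose and 4 fell, where 20.0% of all genes rose and 20.2% fell. Among the 4 falls BTG3 and TOB1 were lost in 4 and 8 of 15 alternatives. GADD45B, the relative of GADD45A, fell from 55.6 ± 12.1 to 23.6 ± 1.03 FPKM where GADD45A rose, and BTG1, the relative of BTG2, rose from 10.6 ± 1.30 to 19.3 ± 0.966 FPKM where BTG2 fell. The CDK inhibitor CDKN1C fell with CDKN1A, from 24.97 ± 7.15 to 10.1 ± 0.277 FPKM. In U266, of 8 tested 3 rose and 1, BTG3, fell (log2 change -0.22, lost in 4 of 15 alternatives). Of all genes 21.1% rose and 19.6% fell in U266. BTG1 again rose, from 7.16 ± 0.522 to 16.3 ± 0.518 FPKM, and the CDK inhibitor CDKN1B rose from 41.7 ± 1.60 to 55.8 ± 1.67 FPKM, as did TOB1, from 37.1 ± 0.827 to 46.0 ± 2.57 FPKM. The CDKN1B and TOB1 calls in U266 were lost with TMM-style scaling (limma adjusted p = 0.0611 and 0.252).

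Genes of proteins that bind the members' products included the targets of p21. Of 10 partners tested in LP-1 2 rose and 3 fell, where 20.0% of all genes rose and 20.2% fell. The 2 rises, RAD23B and CUL4A (log2 changes 0.25 and 0.31), were lost in 8 and 4 of 15 alternatives. Cyclin E1 (CCNE1) fell from 3.06 ± 0.310 to 1.45 ± 0.312 FPKM, its kinase CDK2 from 20.8 ± 2.17 to 10.3 ± 0.483 FPKM, and the XPC partner CETN2 from 34.4 ± 7.52 to 16.5 ± 0.704 FPKM. In U266 11 were tested, and 1, RAD23B, rose (log2 change 0.17, lost in 7 of 15 alternatives) and 6 fell. Among the 6 falls CDK2 and RRM1 were lost in 9 and 4 of 15 alternatives. Over all genes 21.1% rose and 19.6% fell in that line. There CCNE1 fell from 10.1 ± 0.448 to 4.93 ± 0.524 FPKM, cyclin D1 (CCND1) from 235 ± 4.44 to 144 ± 7.501 FPKM and the replication clamp PCNA, to which p21 and GADD45A bind, from 227 ± 2.71 to 149 ± 2.82 FPKM.

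Cell cycle genes that p53 is known to repress through p21 were called in both directions in each line. Of 15 tested in LP-1, rises numbered 3 and falls 2, and 10 had no call, with a median log2 change of -0.09. Over all genes 20.0% rose and 20.2% fell in LP-1. The replication licensing genes CDC6 and MCM5 rose from 10.07 ± 0.312 to 28.8 ± 0.970 FPKM and from 10.2 ± 0.825 to 18.2 ± 0.495 FPKM, and CDK1 fell from 35.0 ± 7.37 to 20.9 ± 0.728 FPKM. In U266 5 rose, 5 fell and 5 did not pass, with a median of -0.01, where 21.1% of all genes rose and 19.6% fell. MCM5 fell there, from 31.7 ± 0.654 to 19.6 ± 0.347 FPKM, and so did the transcription factor MYBL2, from 614 ± 15.8 to 430 ± 11.1 FPKM, while the phosphatase gene CDC25C rose from 7.13 ± 0.655 to 10.4 ± 0.723 FPKM.

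Genes most like 3 of the members over the 12 libraries, by Pearson's r of log2(FPKM + 1) centred within each line over the 8865 genes kept in both, were as follows. The genes nearest to GADD45A were SEPHS2 (r = 0.995), FBXO42 (0.989) and TMEM79 (0.987). Nearest to CDKN1A were RNF141 (0.974), FBXL5 (0.973) and SLC44A2 (0.970), each lower with DHA in LP-1 and higher in U266. Nearest to MDM2 were NBN (0.991), RBBP8 (0.988) and LARP4 (0.988). These libraries share 4 group means, so the values describe a common pattern of groups and carry no test.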

How the data were processed

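The authors deposited 1 table of FPKM values per line, per the file headers and names; LP-1 rows are Ensembl gene IDs and U266 rows gene symbols. No source used here gives the aligner, counter or annotation. GRCm38 and mm10, which are mouse builds, stand in the submitters' processing notes, although the rows are human genes. FPKM values are not counts, so limma 3.58.1 (R 4.3.3) was run on log2(FPKM + 1) in each line, for genes reaching 1 FPKM in 3 or more of the 6 libraries, with a variance trend and Benjamini-Hochberg adjustment over all genes tested; a gene was called at an adjusted p under 0.05. This scale understates changes of low genes. The line difference was the interaction contrast in a joint fit. The fit was tested on simulated data, with 50 changed genes per fold. It recovered 38% of 1.5-fold and 60% of 2-fold changes in LP-1, and 80% and 94% in U266. A gene that did not pass may therefore have changed, and a call in 1 line alone is no difference between the lines.

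Depth was recovered with GENCODE 29 exon lengths: 91.2 to 92.2% (LP-1, genes under 0.8 kb) and 93.8 to 94.6% (U266) of values up to 100 reads lay within 0.1 read of a whole number. Symbols were found for 42054 LP-1 and 18618 U266 rows. Members and lists were chosen with earlier results of these data known. Besides the members and MDM4, the named genes were the 3 largest calls of each list per line and the 3 most alike genes. CHEK2, ALDH18A1, BBC3, BTG3, RAD23B, ATR, CHEK1, PMAIP1, APAF1, RAP2B and AEN were named after their values were seen. So were FDXR, JDP2, PML, TP53I3, PPM1D, CUL4A, RRM1 and the markers. 1 further gene of that rule is not reported here and was left out of the list of regulators after the data were seen. Pairing by replicate number was checked: same-numbered libraries deviated together with r of 0.07, 0.02 and 0.18 in LP-1 and -0.04, -0.08 and -0.02 in U266, so the numbers were not treated as pairs. Alternatives changed the pseudocount, filter, scaling, variance prior, samples in the fit and replicates.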

Additional observations from a re-analysis of the deposited data

Results flagged for a closer look

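For 5 of the 9 genes the DHA effect differed between U266 and LP-1 by the limma interaction contrast. Of the 8865 genes kept in both lines 34.7% differed. The log2 change in U266 minus that in LP-1 was 0.92 for CDKN1A (-0.53 in LP-1 and 0.40 in U266), 0.95 for BTG2 (-1.59 and -0.64), 0.71 for DDB2 (-0.73 and -0.02), -0.53 for MDM2 (0.57 and 0.04) and 0.47 for TP53INP1 (-1.30 and -0.83). CDKN1A was the member called in both lines with opposite signs, although its rise in U266 did not pass with TMM-style scaling. The TP53INP1 difference was lost in 2 of 19 alternatives.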

How the results depend on the processing

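Across 15 alternatives the number of members called ran from 6 to 7 in LP-1 and from 3 to 5 in U266, and across 19 from 4 to 6 for the line difference; the 6 genes called in LP-1 were called in every alternative. In U266 the calls of GADD45A, BTG2 and TP53INP1 passed in every alternative, and TMM-style scaling left 3 calls there. TMM-style scaling moved the median line difference of all genes from -0.02 to -0.15. TMM-style scaling without LP-1 DMSO replicate 3 or U266 DHA replicate 3 was added after seeing the data and gave 7 and 4 members. With 1 replicate left out, genes called ran from 2783 to 6745 in LP-1 (most without DMSO replicate 3). In LP-1 the other p53 targets called then ran from 7 to 11, regulators of p53 from 4 to 8, protein partners from 3 to 6 and cell cycle genes from 3 to 7. In U266 the other p53 targets called ran from 3 to 9 and regulators of p53 from 2 to 4. A mean of at least 5 FPKM left 3034 genes called in LP-1 (of 6903 tested), 6 other p53 targets in LP-1 and 4 in U266; no filter left 4 in U266. TMM-style scaling left 2 paralogs and 5 cell cycle genes in U266, and no variance trend 4 partners. In 1 fit of all 12 libraries 8 cell cycle genes were called in LP-1, and 2534 genes, 2 regulators, 3 partners and 6 cell cycle genes in U266. With the replicate block 4559 genes and 6 members were called in LP-1 and 3891 and 4 in U266, and 3 partners in LP-1; not every library deviated most like its own number. Except where fewer genes or libraries were tested, the cause of these shifts was not tested.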
